A study of Drosophila melanogaster with 4 samples.

Results

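The odorant receptor (Or) and gustatory receptor (Gr) genes of Drosophila melanogaster were examined for summits of the histone methyltransferase Pr-set7, mapped by targeted DamID in larval neural stem cells. Members were the protein-coding genes of the RefSeq table for the dm6 assembly whose symbol is Or or Gr followed by 2 digits and letters, and they numbered 111 of 13922 genes on the 6 chromosome arms, with 55 Or and 56 Gr genes. In targeted DamID a DNA adenine methylase, Dam, marks GATC motifs close to the sites its fusion partner visits, and the methylated DNA is sequenced. The group described carried UAS-Dam-Pr-set7 (the pUASTattB-LT3-NDam-Pr-set7 construct) under grh-Gal4, with 2 samples, and its control carried UAS-Dam under the same driver, also with 2 samples. All 4 samples came from larvae 24 h after hatching, from eggs collected over 6 h and kept at 25 °C, with the larvae moved to 29 °C. The design text describes 2 batches, each with 1 sample of either genotype, and batch cannot be told apart from replicate. The fusion protein is made wherever grh-Gal4 is active. The labels list no mutation of the native Pr-set7 gene, and they do not give the number of animals per sample. The Dam-alone samples were not analysed here, and no source used here states whether they were the control in summit calling.

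Insect Or and Gr proteins are membrane proteins of sensory neurons that detect odorants and tastants. Most Or proteins act as ion channels together with the co-receptor Orco, and a given receptor gene is used by a small set of olfactory or taste neurons. The genes are short, and many lie in tandem arrays that arose by duplication. Pr-set7 (SETD8) places a single methyl group on lysine 20 of histone H4. Summit positions measure no RNA, so neither the labelled cell type nor the activity of the receptor genes could be checked here.

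The Dam-Pr-set7 lists held 2876 summits in replicate 1 and 4281 in replicate 2, of which 2856 and 4240 lay on the 6 arms. Summit heights, the authors' values in fragments, had medians of 42 and 37. The read depth of each library is unknown, so a gene without a summit is one where none was called at this depth. Positions of GATC motifs were not available here either, so genes with few of them could not be told apart. A gene is called reached where a summit lay inside its span or within 1000 bp of either end.

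Few receptor genes were reached. In both replicates a summit was found at 4 of the 111 members (3.60%, exact 95% interval 0.990 to 8.97%), against 18.2% of all protein-coding genes. The 4 were Or13a, Or47b, Or69a and Gr64a. Replicate 1 alone reached those same 4 members (3.60%, against 22.5% of all genes), and replicate 2 reached 8 (7.21%, against 28.1%). A summit in either replicate was present at 8 members (7.21%, interval 3.16 to 13.7%), against 32.4% of all genes. The 4 genes reached in replicate 2 only were Or59a, Or67c, Gr59e and Gr59f. The remaining 103 members had no summit in either list. These intervals cover counting error only, and members that share a summit are not independent. No test of the list was made, because the members were chosen with results of these data known.

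**Figure D1:**
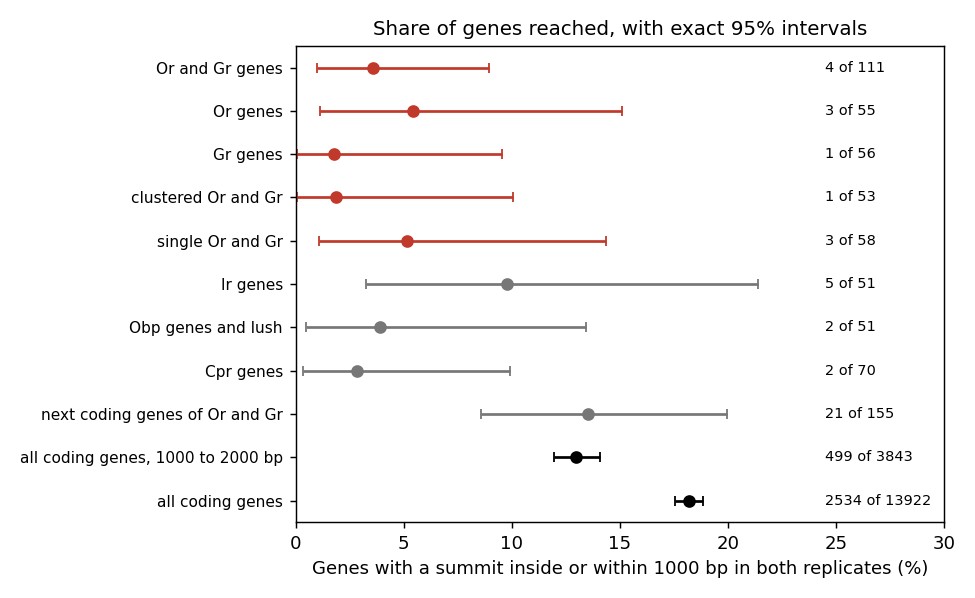
Share of genes with a summit inside or within 1000 bp in both replicates (x axis, percent), with exact 95% intervals as bars and the counts at the right. All 5 receptor groups, in red, have shares from 1.79 to 5.45%, and all coding genes, in black at the bottom, have 18.2%.

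Receptor genes are shorter than the average gene, and a short span has less room for a summit. The members had a median span of 1438 bp (range 1143 to 7422), against 2163 bp for all genes. Among genes of 1000 to 2000 bp, 2 of 88 members were reached in both replicates (2.27%), against 13% of the 3843 genes of that length. In replicate 1 it was 2 of 88 members against 17% of such genes, and in replicate 2 it was 6 of 88 against 20.9%. In either replicate the counts were 6 of 88 members (6.82%) and 25% of genes of that length. By nearest coding gene to a summit, 1 of the 88 (1.14%) was reached in both replicates, against 6.01%. Among all genes of this length the share was higher with more neighbours, while the members showed no such order. Of the members of 1000 to 2000 bp with 2 or more other coding genes within 1000 bp, 1 of 32 was reached in both replicates (3.13%), against 431 of 2365 such genes (18.2%). With 1 such neighbour the counts were 0 of 34 members, which allows a share of up to 8.82%, and 61 of 1068 genes (5.71%). With no neighbour they were 1 of 22 members (4.55%, interval 0.115 to 22.8%) and 7 of 410 genes (1.71%). With a summit in either replicate, 3 of 32 members with 2 or more neighbours were reached (9.38%, interval 1.98 to 25.0%, against 32.3% of such genes), 0 of 34 with 1 neighbour (against 14.8%) and 3 of 22 with none (13.6%, interval 2.91 to 34.9%, against 9.27%). In this length range isolated members lay above such genes in both counts and members with neighbours below them, on 0 to 3 genes each. The intervals of the isolated members hold the share of such genes in both counts. Without the length limit the order was reversed, with 2 of 28 isolated members (7.14%) against 11.1% of isolated genes in both replicates. In either replicate the shares were 14.3% and 22.0%.

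The 4 members reached in both replicates had summits at nearly the same position in the 2 lists. At Or13a (X, 15974425 to 15976706), an odorant receptor that also serves larval olfactory neurons, the replicate 1 summit, of 67 fragments, lay at 15973985, and the replicate 2 summit, of 61 fragments, at 15973984. They were 1 bp apart and 440 and 441 bp outside the gene, and they were the highest summits at any member in each list, at height percentiles of 71.6 and 72.9. The gap they occupy separates Or13a from mmd, which encodes an ADAM family metalloprotease and ended 826 and 825 bp away. A long noncoding RNA gene, lncRNA:CR45527, lay closer to both summits, at 68 and 67 bp.

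At Or47b (2R, 11319710 to 11321312), a receptor of male courtship circuits that responds to fatty acid-derived fly odours, the summits lay inside the gene. Replicate 1 had 23 fragments at 11320475 and replicate 2 had 31 fragments at 11320399, 76 bp apart. No other gene of the table came within 1000 bp of them. Or47b was the only member with an internal summit in both lists, against 1371 of 13922 genes (9.85%) over the whole table. Its heights stood at percentiles of 18.3 and 41.2 of their lists.

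At Or69a (3L, 12964360 to 12967733), a receptor for plant volatiles and a fly pheromone, the summits at 12968704 (29 fragments) and 12968724 (27 fragments) were 20 bp apart. They lay 971 and 991 bp beyond the gene, just inside the 1000 bp limit, with no other gene within that distance. At Gr64a (3L, 4026769 to 4028600), a sugar receptor, the summits at 4026277 (55 fragments) and 4026211 (53 fragments) were 66 bp apart. They lay 492 and 558 bp outside Gr64a and closer to its neighbour CG11594, at 266 and 200 bp. When each summit was credited only to the nearest coding gene, Or13a, Or47b and Or69a stayed reached in both replicates and Gr64a did not. That left 3 of 111 members (2.70%), against 11.4% of all genes.

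**Figure D2:**
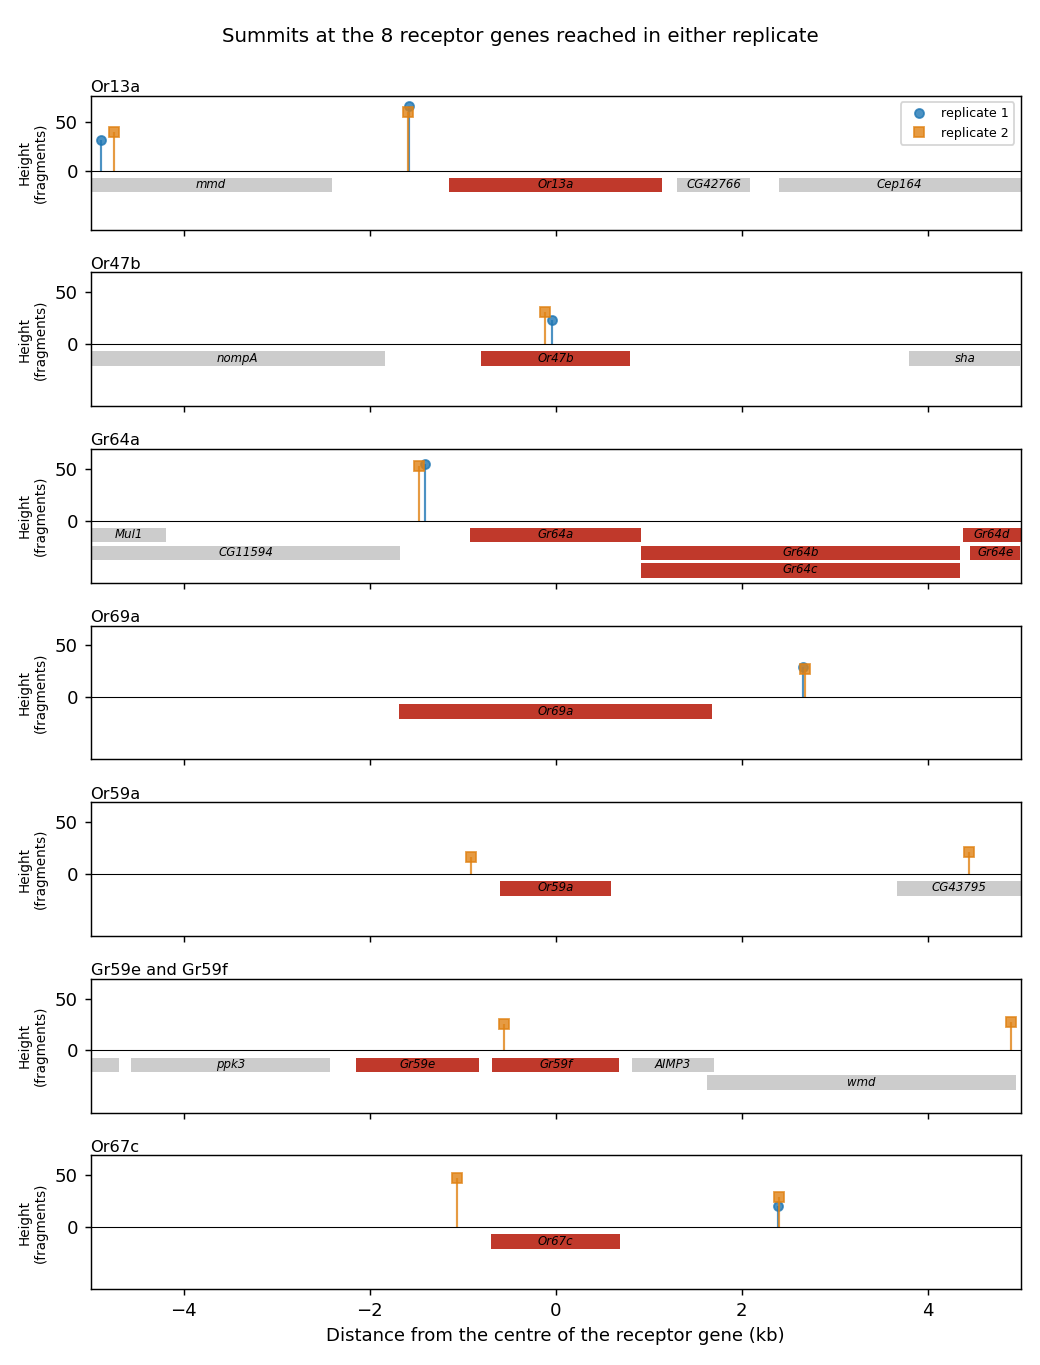
Summits (vertical lines with circles for replicate 1 and squares for replicate 2, height in fragments on the y axis) by distance in kb from the centre of the receptor gene. Red bars are receptor genes and grey bars other coding genes. Or13a, Or47b, Gr64a and Or69a have a summit of each replicate 1 to 76 bp apart, and the summits within 1000 bp of Or59a, Gr59e, Gr59f and Or67c come from replicate 2 only.

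The members reached in replicate 2 only were covered by 3 summits. Or59a (2R, 23439868 to 23441065), a receptor of larval olfactory neurons, had a summit of 16 fragments 316 bp outside it, at a height percentile of 8.27, and the nearest summit of replicate 1 to that position was 41857 bp away. Gr59e and Gr59f, adjacent taste receptor genes on 2R, shared a summit of 25 fragments at 23542643, inside Gr59f and 264 bp from Gr59e. The nearest summit of replicate 1 to it was 8921 bp away. Or67c (3L, 10243320 to 10244706), an odorant receptor, had a summit of 47 fragments at 10242956, 364 bp outside the gene and inside the noncoding gene lncRNA:CR44541. On its other side both lists had a summit, of 20 fragments at 10246409 in replicate 1 and of 29 fragments at 10246415 in replicate 2, but these were 1703 and 1709 bp away. Over all reached members the heights ran from 23 to 67 fragments in replicate 1 (4 summits, median 42) and from 16 to 61 in replicate 2 (7 summits, median 31), within the range of each list.

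Just outside the 1000 bp limit lay Gr43a, a fructose receptor that also works in the brain, with a summit of replicate 1 at 1076 bp (33 fragments), inside the neighbouring gene Glo1. Or74a followed at 1177 bp in replicate 1 (28 fragments). Or67d, the receptor for the male pheromone cis-vaccenyl acetate, had a summit pair 30 bp apart, of 42 fragments at 1194 bp in replicate 1 and of 40 fragments at 1224 bp in replicate 2. Gr97a had one at 1238 bp in replicate 2 (17 fragments), inside CG5521, and Gr32a, a bitter receptor, one at 1805 bp in replicate 1 (26 fragments), inside Idua. Within 2000 bp, 6 members were reached in both replicates (5.41%), against 23.3% of all genes.

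The shares of clustered and single members had overlapping intervals. A member was called clustered where another member lay within 20000 bp, which gave 53 clustered and 58 single genes. In both replicates 1 of 53 clustered members was reached (1.89%, interval 0.0478 to 10.1%) and 3 of 58 single members (5.17%, interval 1.08 to 14.4%), a difference of -3.29 percentage points. In either replicate the counts were 3 clustered (5.66%) and 5 single members (8.62%). With only summits above the median height of their list, the difference turned to 0.163 percentage points, since Gr64a and Or13a were then the 2 members left. By family, 3 of 55 Or genes (5.45%, interval 1.14 to 15.1%) and 1 of 56 Gr genes (1.79%, interval 0.0452 to 9.55%) were reached in both replicates. The families and the arrangement were not independent. The 5 Or genes reached in either replicate were all among the 37 single Or genes, and the 3 Gr genes were all among the 35 clustered Gr genes. The 18 clustered Or genes had none, which allows a share of up to 16.7%, and the 21 single Gr genes had none, which allows up to 14.3%.

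The 53 clustered members formed 18 clusters with a median extent of 5327.5 bp, and 16 of them had no summit within their extent or 1000 bp around it in either list. Whether 16 of 18 is more than for other stretches of this length was not tested. Summits were sparse over the arms, at 21.4 and 31.8 per Mb in replicates 1 and 2, so short stretches often hold none. The cluster with the most members, Gr64a to Gr64f on 3L, holds 6 sugar receptor genes over 10807 bp and was flanked by summits on both sides. The pair next to Gr64a lay on one side, and on the other side a summit of each list stood 2543 bp from Gr64f. The table gives the same span to Gr64b and Gr64c and nearly the same to Gr64d and Gr64e. The interior of the cluster held no summit. Gr59e with Gr59f was the other cluster with a summit, in replicate 2 alone.

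The clusters with 3 or more members and no summit were Gr22a to Gr22e, Or33a to Or33c, Gr36a to Gr36c, Gr58a to Gr58c, Gr59a to Gr59d, Or65a to Or65c, Gr93a to Gr93d, Gr98b to Gr98d, and Gr10a and Gr10b with Or10a. Their distance to the nearest summit varied widely. The taste receptor genes Gr58a to Gr58c on 2R were the most remote in replicate 2, with the nearest summit 55010 bp from the cluster, and lay 107716 bp from the nearest in replicate 1. Gr22a to Gr22e on 2L came second in replicate 2, at 45313 bp, and lay at 51384 bp in replicate 1. Gr59a to Gr59d on 2R, at 3835 and 3057 bp, and Gr93a to Gr93d on 3R, at 6647 and 6609 bp, had summits of both lists nearby. Among these clusters the lists differed most at Or65a to Or65c on 3L, which lay 128017 bp from the nearest summit of replicate 1, the farthest of any cluster in that list, and 4426 bp from that of replicate 2.

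**Figure D3:**
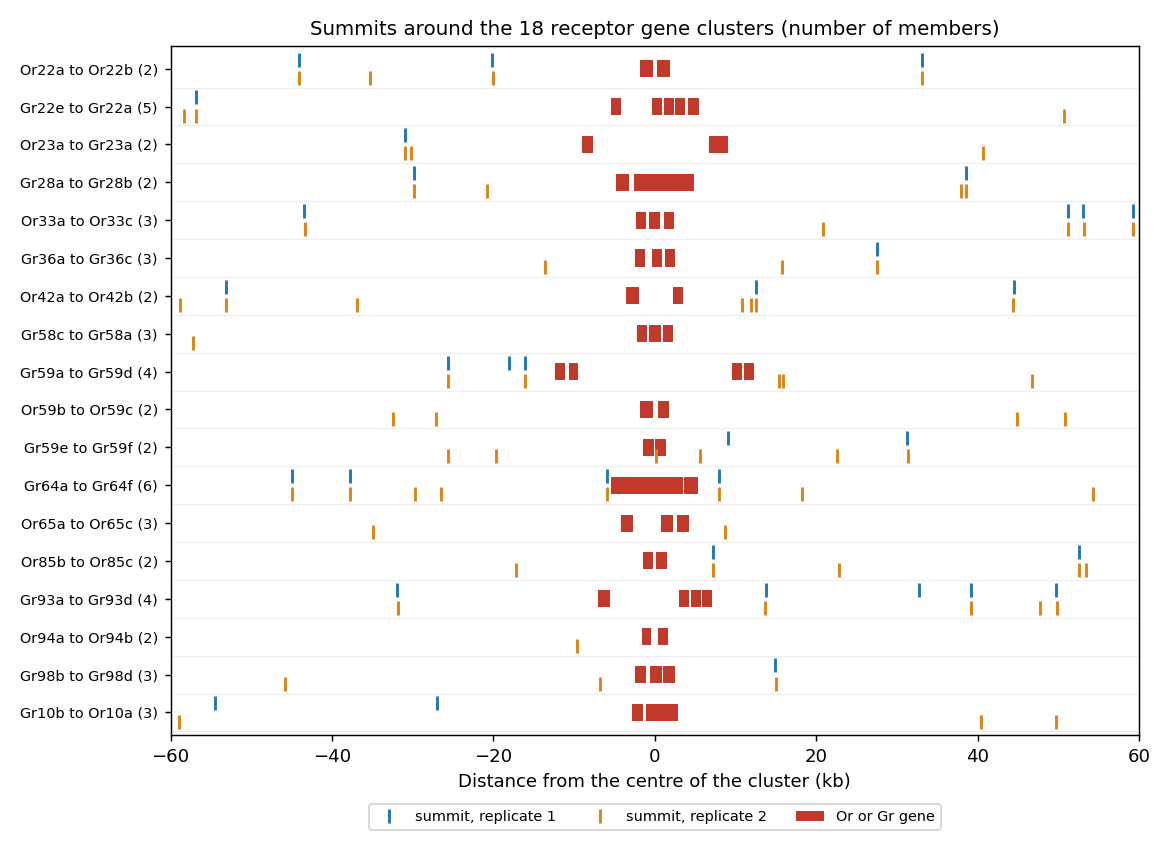
The 18 clusters (1 per line, number of members in brackets), with receptor genes in red and summits of replicate 1 (blue, upper) and replicate 2 (orange, lower) by distance in kb from the centre of the cluster. Summits within 1000 bp of a cluster appear at Gr64a to Gr64f in both lists and at Gr59e to Gr59f in replicate 2.

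Without a distance limit, the median member lay 18244 bp from the nearest summit in replicate 1 and 10160 bp in replicate 2, against 8402.5 and 5332.5 bp for all genes. Among genes of 1000 to 2000 bp the medians were 20056.5 and 10510 bp for the 88 members and 8957 and 6308 bp for all genes of that length. In this length range isolated members had medians of 17358.5 and 10778.5 bp, nearer than isolated genes at 20888 and 13250 bp. Members with neighbours lay farther than such genes. With 1 neighbour the medians were 18953.5 and 14781 bp against 14060 and 9892.5 bp. With 2 or more they were 22032.5 and 7981.5 bp against 5894 and 4310 bp. Without the length limit isolated members had 19718 and 9685.5 bp, against 17849 and 11082 bp. Clustered members had medians of 24979 and 11397 bp, and single members 12682.5 and 9329.5 bp. Within 5000 bp, 21.6% of members and 40.3% of all genes had a summit in replicate 1, and 27.9% and 48.8% in replicate 2. Within 50000 bp the shares were 81.1% and 90.6% in replicate 1. In replicate 2 they were 96.4% of members and 95.3% of all genes, so that the curves met.

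**Figure D4:**
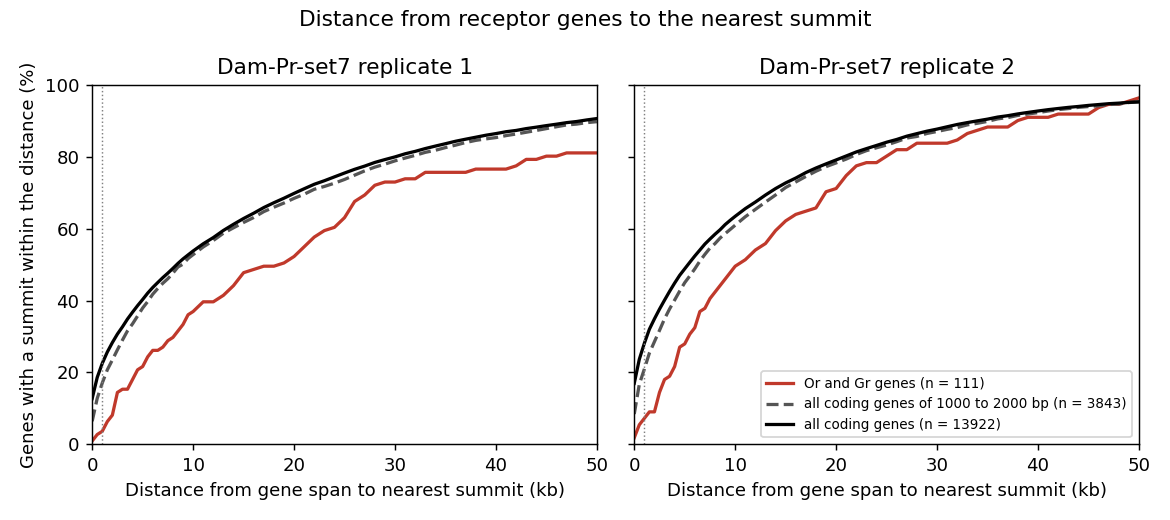
Share of genes (y axis, percent) with a summit of replicate 1 (left) or replicate 2 (right) within the distance on the x axis (kb), for receptor genes (red), coding genes of 1000 to 2000 bp (dashed) and all coding genes (black). The dotted line marks 1000 bp. The red curve starts below the other curves in both panels and meets them near 50 kb in replicate 2 only.

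Counted per length of DNA, the spans of the members held 1 summit in replicate 1 and 2 in replicate 2 over 0.187 Mb. That is 5.34 per Mb (exact Poisson 95% interval 0.135 to 29.8) and 10.7 per Mb (1.29 to 38.6), against 21.4 and 31.8 per Mb over the arms. From the ends to 1000 bp outside, the densities were 17.3 (3.57 to 50.6) and 28.9 per Mb (9.37 to 67.4). From 1000 to 5000 bp outside they were 28.3 (16.8 to 44.7) and 37.7 per Mb (24.2 to 56.1). These 6 intervals hold the density of the arms. From 5000 to 20000 bp the densities were 17.3 (12.3 to 23.6) and 34.1 per Mb (26.9 to 42.6). From 20000 to 50000 bp they were 25.5 (20.8 to 30.9) and 40.7 per Mb (34.7 to 47.5), and there the interval of replicate 2 lay above the arms. The next coding genes on either side that are not receptors were reached in both replicates in 21 of 155 cases (13.5%, interval 8.59 to 20.0%), against 18.2% of all genes. The receptor genes reached in both replicates were on 3L (2 of 22 members, 9.09%, against 18.8% of all genes there), 2R (1 of 28, 3.57%, against 19.5%) and X (1 of 6, 16.7%, against 14.5%). On 2L 0 of 27 were reached, which allows up to 11.1%, and on 3R 0 of 28, which allows up to 10.7%, against 18.4% and 18.5% of all genes on these arms.

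By role the lists were short, and their shares stand beside 18.2% of all genes in both replicates and 28.1% in replicate 2. Of 21 odorant receptors of larval olfactory neurons, 1 was reached in both replicates (Or13a; 4.76%, interval 0.120 to 23.8%) and 1 in replicate 2 only (Or59a). Of the 9 sugar receptors, which include Gr5a and Gr43a, Gr64a alone was reached in both (11.1%, interval 0.281 to 48.2%). Gr5a (X), a trehalose receptor, had a summit of 34 fragments in replicate 2, 199 bp outside it and 441 bp from Tre1. Neither the carbon dioxide receptors Gr21a and Gr63a nor a chosen list of 6 widely used bitter receptors (Gr32a, Gr33a, Gr39a, Gr66a, Gr89a and Gr93a) had a summit in either list. A count of 0 of 6 allows a share of up to 50%, and 2 genes set no limit. The 8 Or and Gr genes of 1 digit had none in both replicates, and Or1a and Gr5a had one in replicate 2. The Or1a summit lay 322 bp outside Or1a and inside CG3777.

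Of 6 co-receptors and membrane partners, 1 was reached in both replicates (16.7%, interval 0.421 to 64.1%), close to the 18.2% of all genes. It was Orco, the co-receptor on which most Or proteins depend. At Orco (3R, 5407183 to 5412406) replicate 1 had 32 fragments at 5412470 and replicate 2 had 34 fragments at 5412469, 64 and 63 bp outside the gene, with no other coding gene within 1000 bp. Of its fellow partners Ir8a, Ir25a, Ir76b, Snmp1 and Snmp2, the last had a summit of 20 fragments in replicate 2 and the others had none. The Snmp2 summit lay inside both Snmp2 and CG32373. Ionotropic receptor (Ir) genes, another receptor family of sensory neurons, were reached in both replicates in 5 of 51 cases (9.80%, interval 3.26 to 21.4%), against 18.2% of all genes. They were Ir21a, a cooling sensor (37 and 34 fragments in replicates 1 and 2), Ir31a (161 and 93), the humidity receptor gene Ir40a (27 and 24), Ir54a (16 and 22) and Ir76a (33 and 23). All of these summits were inside the Ir genes. That of Ir76a in replicate 2 was also inside CG14102, and in replicate 1 it lay 66 bp from that gene. Ir40a is a long gene (2L, 22189526 to 22214376), and its summits were not at the same position, at 22211342 and 22210811. The Ir54a heights stood at percentiles of 3.70 and 22.7 of their lists. By nearest gene, 4 of the 51 Ir genes were reached in both replicates (7.84%), against 11.4% of all genes. Of the odorant-binding protein (Obp) genes with lush, 2 of 51 were reached in both replicates (3.92%, interval 0.478 to 13.5%), against 18.2% of all genes. By nearest gene it was 0 of 51, against 11.4%. The summits of Obp28a (199 and 166 fragments) were inside Ziz, and those of Obp93a (33 and 81) were inside CG5793. The Cpr genes encode cuticle proteins and were taken for comparison after the receptor values were known. They were reached in both replicates in 2 of 70 cases (2.86%, interval 0.348 to 9.94%), against 18.2% of all genes.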

How the data were processed

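The submitters' processing notes name build dm6 and the tools MACS 1.4.2, Bowtie2 2.2.6 and bcl2fastq 2.19.0.316. The peak-calling control, cutoffs and treatment of duplicate or multiply mapping reads are not given in the sources used here, which leaves near-identical receptor copies uncertain. DpnI digestion preceded PCR of the methylated fragments, per the labels' protocols. The deposited signal is the authors' summit height in fragments, at intervals of 1 bp, called per sample and not scaled to depth. Heights were used only within a list.

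Gene spans came from the RefSeq table of Release 6 plus ISO1 MT, which gives neither strand nor sequence, so gene starts and 3' ends, exons and UTRs were not told apart and no sequence is shown. Replicate numbers follow the order of deposit and are names only. Nothing states that they came from separate animals.

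Shares have exact Clopper-Pearson 95% intervals, and a share of 0 allows up to 3 genes of the total. The members and lists were chosen with earlier results of these data known, and no test was made. Named were all members reached in either replicate, the coding genes at their summits, the clusters of 3 or more members, and related genes reached in both replicates; those just outside 1000 bp, and related genes with a summit in 1 list, were named after their values were seen. The alternatives were other distances, summits above the median height, the nearest gene per summit, other cluster rules, added members and each replicate alone. SciPy 1.17.1, numpy 2.4.6, matplotlib 3.10.9 and pandas 2.3.3 were run in Python 3.11.15, and the functions were tested on simulated data.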

Additional observations from a re-analysis of the deposited data

How the results depend on the processing

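Of 61 alternative values, 30 kept to the reported ones, within 1.5 times for a count or within the spread between replicates for a difference or distance. Some agreements were fixed in advance, since replicate 2 reached every member of replicate 1, and a list with none within 1000 bp has none within 500 bp. The spread for Or minus Gr genes was 0.0459 points, less than 1 gene moves it. The 30 are therefore no measure of robustness. Most counts are so small that 1 or 2 genes move them. Members reached in both replicates numbered 1 inside the span or within 200 bp and 2 within 500 bp or above the median height, against 4 as reported, and with 1 list alone they ranged from 4 to 8. In either replicate, 2 members were reached inside the span or within 200 bp, 13 within 2000 bp and 3 above the median height, and with 1 list alone the range was 4 to 8. For all genes the share in either was taken at 1000 bp only (32.4%). Replicate 2 alone reached 16.9% of them inside the span and 34.9% within 2000 bp, with the members below both. The share of all genes in both was 9.85% inside the span, 12.3% within 200 bp, 14.8% within 500 bp and 23.3% within 2000 bp. Above the median height it was 10.9%, and the members stayed below in each.

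The difference of clustered minus single members, -3.29 percentage points as reported, was -1.72 inside the span or within 200 bp, -6.73 within 2000 bp, 0.163 above the median height, -5.17 by nearest gene, -2.66 with the genes of 1 digit added, -2.92 and -0.856 with cluster distances of 5000 and 50000 bp, and -2.80 where the next coding gene had to be a member. With 1 list alone it ran from -3.29 to -2.96. The difference of Or minus Gr genes, 3.67 points as reported, was 1.82 inside the span or within 200 bp, 7.31 within 2000 bp, 0.0325 above the median height, 5.45 by nearest gene and 3.42 with the added genes, and 3.67 to 3.73 with 1 list alone. The mean of the median distances in the lists, 14202 bp, was 31213 bp above the median height. Within 500 bp the genes reached in both replicates numbered 0 for the Obp list and 0 for the sugar receptors, against 2 and 1 as reported. By nearest gene within 2000 bp, 5 members were reached in both. Neither that count nor the distance of 31213 bp was computed over all genes. The cause of these moves was not tested. No paired analysis was possible because only the Dam-Pr-set7 samples were analysed here, so that no pair of groups was compared. Depth limits the absence of a summit, since read numbers per library are unknown, and so does the unknown number of GATC motifs at each gene.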
